A study of Mus musculus with 12 samples.

Results

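The genes of semaphorin signaling were followed in 2 RNA-seq experiments on mouse bone marrow cells. Protein-coding genes were taken whose symbol starts with Sema3 to Sema7 or with Plxna, Plxnb, Plxnc or Plxnd, or is Nrp1 or Nrp2. This gave 31 of the 55487 genes counted, 20 semaphorin ligands and 11 receptors (9 plexins and 2 neuropilins). By class, there were 7 semaphorins of class 3, 6 of class 4, 2 of class 5, 4 of class 6 and 1 of class 7.

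The first experiment compared bone marrow macrophages (BMMs), grown from marrow with M-CSF, from female C57BL/6 mice after ovariectomy (OVX) or a sham operation, with 3 libraries each. For both experiments the labels give the C57BL/6 strain and an age of 8 weeks and name no genetic change. The second compared mesenchymal stem cells (MSCs), which are adherent cells of the marrow, under 3 conditions with 2 libraries each. They were kept alone (MSC) or shared a transwell dish with RAW264.7, a mouse macrophage line, which was left untreated (MSC+RAW-TW) or had received lipopolysaccharide, LPS (MSC+RAW-LPS-TW). The MSC+RAW-TW and MSC+RAW-LPS-TW libraries are called A and B, since their count columns carry no number that matches a sample.

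Semaphorins are secreted (class 3) or membrane-bound (classes 4 to 7) proteins, first known for steering growing axons. Plexins are their signaling receptors and act on the cytoskeleton through small GTPases, while neuropilins hold class 3 semaphorins at the plexin. In bone, Sema4d from osteoclasts acts on Plxnb1 of osteoblasts, Sema3a acts through Nrp1, and Plxna1 works with Trem2 and Tyrobp (DAP12) in osteoclasts and dendritic cells. Sema7a binds Plxnc1 and integrins, and Sema3e binds Plxnd1 directly.

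Levels are CPM, a gene's counts relative to all counts of its library, scaled within each experiment by the TMM method of edgeR. The 2 experiments were normalized separately, so levels set side by side across them were not tested. Totals lay between 17012923 and 45367105 counts per library. Sham replicates 2 and 3, and the pair of MSC+RAW-TW libraries, differed by little more than sampling noise (a chi-square ratio to its expectation of 3.09 and 3.56 at high counts, against 44.8 to 353.5 in the other pairs), and each pair was counted as 1 sample. This leaves n = 2 for sham, 3 for OVX, 2 for MSC, 1 for MSC+RAW-TW and 2 for MSC+RAW-LPS-TW. No label says that libraries came from separate animals or cultures, so the p-values measure the spread between these samples only. The labels were checked against marker genes. All 6 MSC libraries carried macrophage RNA, with Lyz2, the lysozyme of myeloid cells, at 9151 to 26650 CPM, and all 6 BMM libraries carried stromal RNA, with the collagen gene Col1a2 at 2517 to 3307 CPM. Col1a2 was at 608.2 to 1084 CPM in the MSC libraries, and Lyz2 at 36080 to 51540 CPM in the BMM libraries. In such bulk samples, fewer cells of a type and less RNA per cell cannot be told apart.

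RefSeq promoter sequences on GRCm38.p6 were at hand for 26 of the 31 genes, in 37 windows. The 250 bases before the start are shown for 4 genes that moved with MSC+RAW-LPS-TW, 3 semaphorins of class 4 that rose and Nrp1 that fell, where no exon of the gene itself lies in the window. Capitals mark matches, on either strand, to the NF-kB consensus, to AP-1 (TGANTCA), to the hypoxia response element core (ACGTG) or to the estrogen response element half-site (AGGTCA).
Sema4c, chr1:36558382-36558631, minus strand: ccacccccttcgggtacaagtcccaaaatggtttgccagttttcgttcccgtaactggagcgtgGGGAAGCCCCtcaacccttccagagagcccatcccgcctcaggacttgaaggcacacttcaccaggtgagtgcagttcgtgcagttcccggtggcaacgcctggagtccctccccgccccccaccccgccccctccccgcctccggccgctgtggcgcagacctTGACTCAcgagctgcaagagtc
Sema4a, chr3:88459102-88459351, minus strand, 1 of 4 windows: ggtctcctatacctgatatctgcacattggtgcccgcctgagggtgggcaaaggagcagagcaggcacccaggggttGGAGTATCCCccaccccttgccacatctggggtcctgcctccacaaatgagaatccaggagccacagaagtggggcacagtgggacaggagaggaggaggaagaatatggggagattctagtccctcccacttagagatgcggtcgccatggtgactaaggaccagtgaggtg
Sema4f, chr6:82939770-82940019, minus strand: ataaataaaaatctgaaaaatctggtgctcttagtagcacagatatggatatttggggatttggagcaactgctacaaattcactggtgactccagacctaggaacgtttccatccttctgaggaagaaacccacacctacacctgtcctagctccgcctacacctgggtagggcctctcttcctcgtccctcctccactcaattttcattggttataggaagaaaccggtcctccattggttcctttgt
Nrp1, chr8:128358823-128359072, plus strand: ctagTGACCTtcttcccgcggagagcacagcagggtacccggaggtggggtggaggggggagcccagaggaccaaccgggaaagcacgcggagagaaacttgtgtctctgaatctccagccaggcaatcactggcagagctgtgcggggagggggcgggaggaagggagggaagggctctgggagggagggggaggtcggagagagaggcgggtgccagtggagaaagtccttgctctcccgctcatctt

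The Sema4c window held an NF-kB match and an AP-1 match, and it overlaps an exon of D430040D24Rik on the opposite strand, a noncoding gene with 216 counts over all BMM and 109 over all MSC libraries. The Sema4a window held an NF-kB match, the Nrp1 window an estrogen half-site and the Sema4f window none of the 4 motifs. The window shown for Sema4a was the only one of its 4 with a match, and the other Sema4c window held none. Of the other genes called in the same comparison, Plxnc1, Plxna2 and Sema3a, which fell, had 1 window each and no match, 2 of the 3 Sema4d windows held matches (AP-1 and the hypoxia core in 1, the estrogen half-site in 1), and the Sema3c window held the hypoxia core. Over all 37 windows, 3 (8.11%) held an NF-kB match, 3 (8.11%) an AP-1 match, 7 (18.9%) the hypoxia core and 7 (18.9%) the estrogen half-site. Among all 32851 promoter windows of this length the shares were 7.25%, 6.75%, 16.6% and 14.0%. A match is a run of letters and not a site of binding.

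Receptor RNA was above ligand RNA in every library, in level per kilobase of exon (CPM per kb). Summed CPM per kb of the 11 receptors lay between 74.0 and 135.2 in BMM libraries and between 116.5 and 188.5 in MSC libraries. The same sum over the 20 semaphorins lay between 42.3 and 65.5 and between 47.4 and 102.1. Within the receptors, Plxnb2 ranked first in mean level in all 5 groups, with 60.1 CPM per kb in sham, 30.2 in OVX, 67.3 in MSC, 71.8 in MSC+RAW-TW and 45.1 in MSC+RAW-LPS-TW. Nrp2 ranked second, with 23.5, 21.1, 61.9, 55.9 and 44.1 CPM per kb. Plxna1 followed, with 11.7, 10.1, 20.8, 17.4 and 12.3. Plxna4, Plxnb1 and Plxnb3 stayed below 1 CPM per kb in every group.

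A pair of membrane-bound ligands made up most of the semaphorin RNA. Sema7a, which is anchored by a lipid, had 18.8 CPM per kb in sham, 19.1 in OVX, 17.6 in MSC, 22.9 in MSC+RAW-TW and 30.3 in MSC+RAW-LPS-TW. Sema4a had 16.8, 9.69, 11.8, 21.6 and 33.4 CPM per kb in the same order. Together they were first and second of the 20 semaphorins in every group, with Sema4a above Sema7a in mean level in MSC+RAW-LPS-TW. Next came Sema4d in OVX, MSC and MSC+RAW-TW, Sema4c in sham and Sema3c in MSC+RAW-LPS-TW. Sema5b had 0 counts in all 6 BMM libraries, which allows up to 3 counts, or 0.0781 to 0.190 CPM, and at most 4 counts in an MSC library. This limit covers counting error only.

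**Figure D1:**
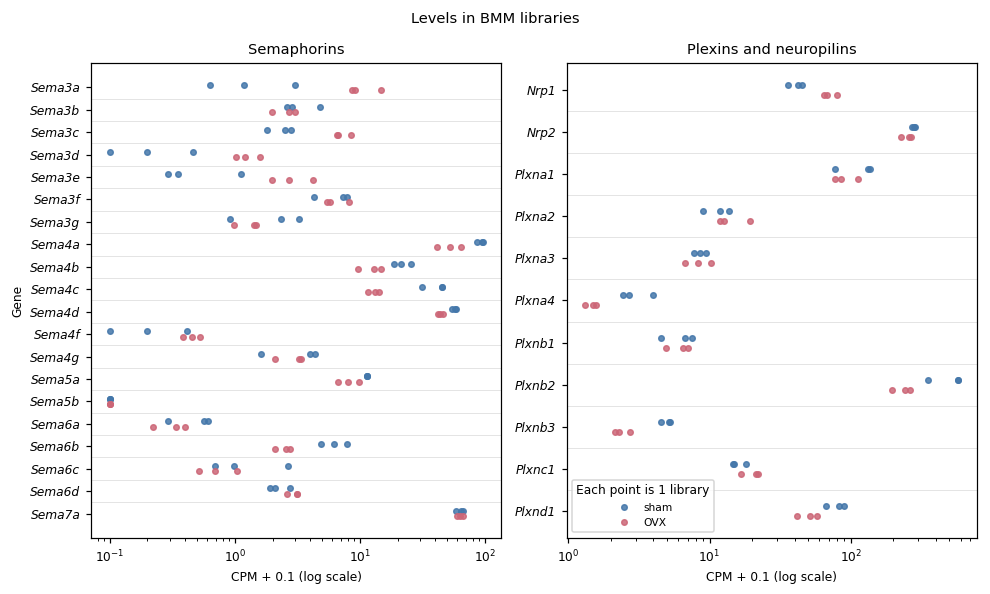
Levels of the 31 genes in the BMM libraries, with genes on the vertical axis and CPM + 0.1 on a logarithmic horizontal axis. Each point is 1 library of sham (blue) or OVX (red), all 3 libraries of a group are shown, and the Sema3a points of OVX, at 8.50 to 14.5 CPM, lie to the right of those of sham, at 0.533 to 2.92 CPM.

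The first comparison asks how BMMs differ after loss of the ovaries. Of 30 genes tested, 6 were called (2-fold or more, with an adjusted p no higher than 0.05), against 8.46% of all 16768 genes tested. Sema3a and Sema3c, both secreted, rose in OVX. Sema4c, Sema6b, Plxnb2 and Plxnb3, all membrane proteins, fell. No receptor rose past the limits. By direction, 2 of 30 genes were called higher, against 5.39% of all genes, and 4 lower, against 3.08%. The median log2 fold change was -0.39 over the 19 semaphorins tested and -0.16 over the 11 receptors, beside -0.01 over all genes tested. Adjusted p values are from edgeR's quasi-likelihood F-test with Benjamini-Hochberg adjustment over all genes tested.

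Sema3a (ENSMUSG00000028883, GRCm38 chromosome 5, 13125414 to 13602565, as for all coordinates here), which repels axons and protects bone, had 2.92, 1.08 and 0.533 CPM in sham replicates 1 to 3 and 14.5, 8.50 and 9.003 CPM in OVX replicates 1 to 3. All OVX libraries were above all sham libraries. The means were 10.7 ± 3.33 CPM (SD, n = 3) in OVX and 1.86 ± 1.49 (SD, n = 2) in sham. The fit gave a log2 fold change of 2.52 ± 0.54 (SE), 5.72-fold, with an edgeR adjusted p of 0.0218. Over 15 alternatives the log2 fold change ranged from 1.70 to 3.78.

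Sema3c (ENSMUSG00000028780, chromosome 5, 17574281 to 17730268) signals through neuropilins with Plxnd1 or A-type plexins. It had 2.71, 2.41 and 1.70 CPM in sham and 8.35, 6.56 and 6.46 CPM in OVX, with no overlap between the groups. The log2 fold change was 1.58 ± 0.28 (SE) with an edgeR adjusted p of 0.0127.

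Sema3d and Sema3e lie beside these genes on chromosome 5 and missed the adjusted limit in the edgeR fit. Sema3d had 0.364, 0 and 0.0969 CPM in sham and 1.49, 0.915 and 1.10 CPM in OVX, from 14, 0 and 2 counts and 49, 35 and 37 counts. Its log2 fold change was 2.43 ± 0.72 (SE), with an edgeR adjusted p of 0.0609. Sema3e had 1.02, 0.253 and 0.194 CPM in sham and 4.14, 1.88 and 2.61 CPM in OVX, with a log2 fold change of 2.20 ± 0.63 (SE) and an edgeR adjusted p of 0.0555. DESeq2 and the edgeR fit with no filter on low counts called both. The fits with every library as its own sample, alone or with a block, also did, but they count the near-identical sham replicates 2 and 3 separately. The call without sham replicate 1 rests on 1 sham sample. Over the alternatives the log2 fold changes of Sema3d and Sema3e reached 4.315 and 3.68. With trends on GC content and length removed they were at 1.61 and 1.56 and not called (edgeR adjusted p 0.196 and 0.147). For all 4 genes every OVX library was above every sham library, where 47.3% of all genes had no overlap between the samples of the groups in either direction. The other class 3 genes did not separate, and Sema3b, Sema3f and Sema3g had log2 fold changes of -0.39, 0.11 and -0.53 with edgeR adjusted p of 0.476, 0.861 and 0.530.

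Among class 4 genes, Sema4c (ENSMUSG00000026121, chromosome 1, 36548639 to 36558349), a ligand of Plxnb2, fell most. It had 30.9, 44.8 and 45.4 CPM in sham and 14.1, 11.6 and 13.0 CPM in OVX. The groups did not overlap, the fitted log2 fold change was -1.57 ± 0.22 (SE), and the edgeR adjusted p was 0.00741. Sema4a had 86.2, 94.4 and 95.5 CPM in sham and 41.2, 52.4 and 63.7 CPM in OVX, a log2 fold change of -0.80 ± 0.22 (SE) that passed the adjusted p (0.0457, edgeR) but not the fold limit. Sema4b and Sema4d had log2 fold changes of -0.78 and -0.39 with edgeR adjusted p of 0.0653 and 0.160. Sema4f had 0 to 12 counts in sham and 11 to 14 in OVX, and Sema4g had a log2 fold change of -0.01, and neither was called. Sema7a had 58.8, 67.0 and 63.9 CPM in sham and 59.7, 63.3 and 66.0 CPM in OVX, with a log2 fold change of 0.01 ± 0.17 (SE).

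Sema6b, a ligand of A-type plexins, had 4.79, 6.14 and 7.80 CPM in sham and 1.98, 2.64 and 2.46 CPM in OVX. This was a log2 fold change of -1.34 ± 0.29 (SE), with an edgeR adjusted p of 0.0231. The other semaphorins of classes 5 and 6 that were tested, Sema5a, Sema6a, Sema6c and Sema6d, had log2 fold changes between -0.91 and 0.46 and were not called.

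Plxnb2 (ENSMUSG00000036606, chromosome 15, 89155549 to 89180788), the most abundant of the receptors per kilobase, had 354.3, 570.9 and 575.8 CPM in sham and 195.7, 243.2 and 260.9 CPM in OVX. Its log2 fold change of -1.003 ± 0.24 (SE) lay at the fold limit, with an edgeR adjusted p of 0.0328. Plxnb3 had 4.45, 5.06 and 5.14 CPM in sham and 2.62, 2.17 and 2.04 CPM in OVX, with a log2 fold change of -1.08 ± 0.27 (SE) and an edgeR adjusted p of 0.0365. Plxnb1, the receptor of Sema4d, had 4.45 to 7.46 CPM in sham and 4.78 to 6.96 CPM in OVX, and the groups overlapped.

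Nrp1, the receptor that binds Sema3a, had 35.6, 45.4 and 41.9 CPM in sham and 64.4, 67.3 and 79.7 CPM in OVX. This log2 fold change of 0.82 ± 0.20 (SE) passed the adjusted p (0.0307, edgeR) and not the fold limit. Nrp2 had 272.9, 287.1 and 281.0 CPM in sham and 266.7, 224.9 and 259.1 CPM in OVX, with a log2 fold change of -0.16 ± 0.17 (SE). Plxna4 had 2.34, 3.86 and 2.57 CPM in sham and 1.22, 1.39 and 1.48 CPM in OVX, with a log2 fold change of -1.02 ± 0.32 (SE) and an edgeR adjusted p of 0.0712. More reads fell on its antisense gene Plxna4os1, 1240 in all BMM libraries, and the strand setting of the counting is not stated. Plxnd1 had a log2 fold change of -0.62 with an edgeR adjusted p of 0.0857. The other plexins, Plxna1, Plxna2, Plxna3, Plxnb1 and Plxnc1, lay between -0.22 and 0.43 on the log2 scale and were not called.

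The direction of these differences went with the GC content of the transcripts. GC content was 39.2% to 42.7% in Sema3a, Sema3c, Sema3d and Sema3e and 41.9% in Nrp1, and it was 56.0% to 63.5% in the 4 genes that fell. Spearman's rho of GC content with the log2 fold change was -0.50 over the 30 genes, as a description across genes that share libraries. The libraries differed in the same way over all genes, with rho between GC content and a gene's deviation from its mean at -0.58, -0.39 and -0.32 in OVX and 0.21, 0.48 and 0.49 in sham. With lowess trends on GC content and length removed, 2 genes stayed called, Sema3c at 1.04 (edgeR adjusted p 0.0352) and Sema4c at -1.13 (edgeR adjusted p 0.0184). Sema3a was then at 1.70, Sema6b at -0.83, Plxnb2 at -0.58 and Plxnb3 at -0.68, with edgeR adjusted p of 0.0785, 0.0713, 0.0775 and 0.179, and Nrp1 was at 0.18 and Sema4a at -0.42 (edgeR adjusted p 0.647 and 0.169). Both medians turned sign, to 0.04 over the semaphorins and 0.18 over the receptors, beside -0.02 over all genes. Over all genes, 1419 of 16768 were called before this step and 589 of 16657 after it. Of these called genes, 63.6% were higher in OVX before this step and 37.4% after it.

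**Figure D2:**
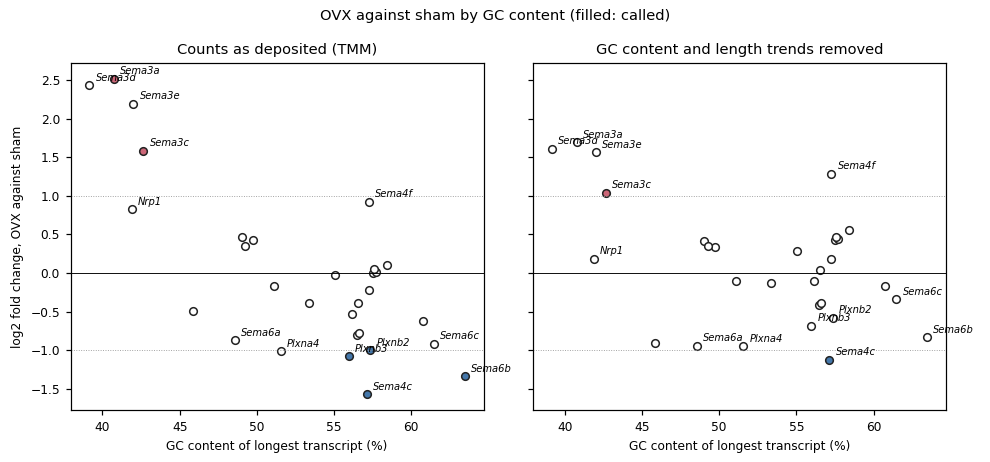
Log2 fold change of OVX against sham (vertical axis) by GC content of the longest transcript in percent (horizontal axis) for the 30 genes tested, from TMM-scaled counts (left) and with trends on GC content and length removed (right). Filled points are called genes, 6 on the left and 2 on the right, and the names mark genes whose log2 fold change on the left exceeds 0.81 in size.

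Without OVX replicate 2 none of the 6 genes was called by edgeR, while the log2 fold changes stayed about as large, at 2.67 for Sema3a, 1.65 for Sema3c, -1.49 for Sema4c, -1.42 for Sema6b, -1.02 for Plxnb2 and -1.03 for Plxnb3. Their edgeR adjusted p were 0.0701, 0.0623, 0.0517, 0.0891, 0.121 and 0.152, and 309 of 16223 genes in all were called. Without OVX replicate 1 the count was 2, beside 678 of 16404 genes in all. Without OVX replicate 3 it was 3, beside 1272 of 16329. Without sham replicate 2 or without sham replicate 3 it was 5, beside 1359 of 16378 and 1341 of 16408. Sema3a was lost without OVX replicate 1 as well, Sema6b and Plxnb3 without OVX replicate 1 or 3, and Plxnb2 without any single library but sham replicate 1. Without sham replicate 1, Sema3d and Sema3e were called too, with 1 sham sample left. The library numbers in the column headers of OVX replicate 2 and sham replicate 2 belong to another series than the rest. Within that series the log2 ratios of this pair were 2.87 for Sema3a, 1.41 for Sema3c, -1.94 for Sema4c, -1.19 for Sema6b, -1.23 for Plxnb2 and -1.18 for Plxnb3. With only replicates 1 and 3, the log2 fold changes were 2.72, 1.74, -1.48, -1.49, -1.02 and -1.03, and none was called (edgeR adjusted p 0.0548 to 0.163). Of all 15939 genes tested in that fit, 199 were called.

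Markers of other cells differed between the groups as well. The summed level of 14 macrophage markers, most of it Lyz2, was 60610 to 64520 CPM in sham and 44680 to 48540 in OVX. That of 11 stromal markers was 7871 to 8471 and 9256 to 10560. For 8 osteoclast markers it was 652.9 to 786.0 and 337.5 to 346.9, and for 8 neutrophil markers 806.4 to 942.5 and 1198 to 1331. The sum of 6 B cell markers was 20.6 to 23.5 CPM in sham and 8.88 to 10.3 in OVX, and that of 5 osteoblast markers 11.6 to 15.5 and 23.1 to 25.1. For 4 megakaryocyte markers it was 130.8 to 254.0 and 327.9 to 377.4 CPM, for 5 T and NK cell markers 2.603 to 3.29 and 1.22 to 1.86, and for 4 MSC surface markers 964.6 to 1081 and 1183 to 1284, and none of these sums overlapped between the groups. Called were 2 macrophage markers higher and 2 lower, 1 stromal marker higher, 4 of 7 osteoclast markers tested lower, 2 of 6 B cell markers lower, 1 of 4 osteoblast markers tested higher and 1 of 4 MSC surface markers in each direction. No neutrophil, megakaryocyte or T and NK cell marker was called, and members of a list also moved apart. Mean CPM of Pf4 was 160.2 in sham and 323.4 in OVX, while Itga2b had 9.81 and 6.44 and Gp9 3.075 and 1.61. Mean S100a8 was 326.7 and 471.9, while Elane had 9.50 and 6.36 and Mpo 11.2 and 5.76. Itga2b, Gp9, Elane and Mpo were named after their values were seen. The osteoblast marker was Ibsp, named after its values were seen, at 5.95-fold. With the trends removed 2 macrophage markers were higher and 1 lower, no stromal marker was higher and 1 was lower, 3 osteoclast markers and 1 B cell marker were lower, and Ibsp stayed called. Counts on genes annotated as cytoplasmic or mitochondrial ribosomal RNA made up 3.22%, 5.69% and 5.70% of all counts in sham replicates 1 to 3 and 2.56%, 2.78% and 2.74% in OVX replicates 1 to 3, with no overlap. The part of the markers and of this share in the semaphorin and plexin differences was not tested.

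Among the partners of the pathway, 5 of 56 genes tested were called, a share close to the 8.46% of all genes. The count was 2 without OVX replicate 1 or without OVX replicate 2 and 8 without sham replicate 1. Of 13 co-receptors and other semaphorin-binding proteins, none was called by edgeR, and 4 passed the adjusted p below 2-fold. They were, named after their values were seen, the integrins Itga1 (0.94 on the log2 scale) and Itgb1 (0.79), Cd72 (-0.82) and Tyrobp (-0.70, edgeR adjusted p 0.0392), while Trem2 had 323.7 to 339.1 CPM in sham and 333.9 to 453.5 CPM in OVX with an edgeR adjusted p of 0.419. With the trends removed none of the 4 passed (edgeR adjusted p 0.111 to 0.458). Of 36 plexin effectors tested, 5 were called higher, beside 5.39% of all genes, led by the kinases Rock2 (1.77 ± 0.21, SE) and Rock1 (1.30 ± 0.24) and by Rasa1, a GTPase-activating protein (1.23 ± 0.21), and none was called lower. The other 2, Rap1a and Rras2, were named after their values were seen and had log2 fold changes of 1.10 and 1.03. Below 2-fold, Rras (-0.93), Cfl1 (-0.77) and Rnd3 (0.75), named likewise, passed the edgeR adjusted p (0.0377, 0.0440 and 0.0457). With the trends removed none of these passed. Of the 5, only Rock2 stayed called with the GC and length trends removed, at 1.02, and Rap1b was then called lower, at -1.26 (edgeR adjusted p 0.0123). None of the 7 proteases that cut semaphorins was called.

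**Figure D3:**
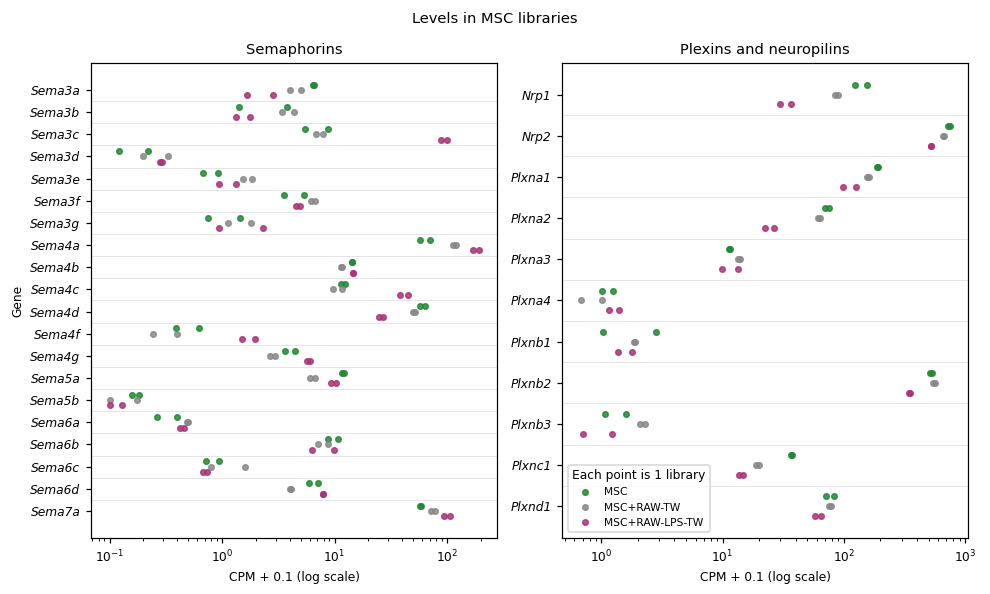
Levels of the 31 genes in the MSC libraries, with genes on the vertical axis and CPM + 0.1 on a logarithmic horizontal axis. Each point is 1 of 2 libraries of MSC (green), MSC+RAW-TW (gray) or MSC+RAW-LPS-TW (purple), and the Sema3c points of MSC+RAW-LPS-TW, at 88.1 and 98.9 CPM, stand apart from the other 4 libraries, at 5.31 to 8.71 CPM.

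In the second experiment, the comparison of MSC+RAW-LPS-TW with MSC asks what activated macrophages beyond a membrane change in the MSC cultures, which also held macrophage RNA. Of 29 genes tested, 9 were called, against 10.9% of all 20499 genes. Sema3c, Sema4f, Sema4c and Sema4a rose (4 of 29, beside 5.85% of all genes). Nrp1, Plxna2, Sema3a, Plxnc1 and Sema4d fell (5 of 29, beside 5.09%). Thus 4 ligands rose and 2 fell, while 3 receptors fell and none rose. The median log2 fold change was 0.41 over 18 semaphorins and -0.53 over 11 receptors, beside -0.01 over all genes tested, and 9 of the 11 receptors had a negative value.

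Sema3c changed most. It had 5.31 and 8.71 CPM in MSC, 6.75 and 7.85 in MSC+RAW-TW, and 88.1 and 98.9 in MSC+RAW-LPS-TW. The mean was 93.5 ± 7.63 CPM (SD, n = 2) against 7.01 ± 2.41 (SD, n = 2) in MSC, a log2 fold change of 3.75 ± 0.22 (SE), 13.4-fold, with an edgeR adjusted p of 5.31e-09. Its mean level per kilobase rose from 0.982 to 13.1 CPM per kb, from place 7 to place 3 among the 20 semaphorins.

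The class 4 genes Sema4c, Sema4a and Sema4f rose with it. Sema4c had 11.4 and 12.2 CPM in MSC and 44.7 and 38.0 CPM in MSC+RAW-LPS-TW, a log2 fold change of 1.81 ± 0.18 (SE) with an edgeR adjusted p of 1.84e-06. Sema4a, which acts on T cells and on endothelium through Plxnd1, had 69.9 and 57.2 CPM in MSC and 170.5 and 190.4 CPM in MSC+RAW-LPS-TW, a log2 fold change of 1.503 ± 0.16 (SE) with an edgeR adjusted p of 3.97e-06. Sema4f was scarce, with 14 and 18 counts in MSC and 62 and 44 counts in MSC+RAW-LPS-TW, or 0.286, 0.528, 1.86 and 1.40 CPM. Its log2 fold change was 2.01 ± 0.66 (SE) with an edgeR adjusted p of 0.0412, and the call was lost without MSC replicate 1, MSC replicate 2 or MSC+RAW-LPS-TW library A and with DESeq2, with log2 fold changes of 1.62 to 2.50 over all alternatives. Sema7a had 58.9 and 56.9 CPM against 93.2 and 106.7, a log2 fold change of 0.78 ± 0.15 (SE) that passed the adjusted p (0.00129, edgeR) but not the fold limit.

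Sema4d and Sema3a fell. Sema4d, the ligand of Plxnb1 and Plxnb2 that also binds Cd72, had 63.3 and 56.8 CPM in MSC and 26.6 and 24.5 CPM in MSC+RAW-LPS-TW. This was a log2 fold change of -1.24 ± 0.16 (SE), with an edgeR adjusted p of 2.72e-05. Sema3a had 6.43 and 6.31 CPM in MSC and 2.73 and 1.56 CPM in MSC+RAW-LPS-TW, a log2 fold change of -1.57 ± 0.32 (SE) with an edgeR adjusted p of 0.00228. Sema3a thus fell here while Sema3c rose. Sema3d was too scarce to test, at 0.0204 to 0.230 CPM, and Sema3e had 0.572 to 1.76 CPM in the 6 libraries and was not called.

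Of the receptors, Nrp1 (ENSMUSG00000025810, chromosome 8, 128358604 to 128503363) fell most. It had 155.2 and 124.6 CPM in MSC, 84.95 and 89.1 in MSC+RAW-TW, and 36.7 and 29.4 in MSC+RAW-LPS-TW, with no overlap between MSC and MSC+RAW-LPS-TW, as for 57.7% of all genes. The log2 fold change was -2.08 ± 0.17 (SE), 4.24-fold, with an edgeR adjusted p of 2.87e-07. Nrp2 had 721.3 and 743.8 CPM in MSC and 520.7 and 524.7 CPM in MSC+RAW-LPS-TW, a log2 fold change of -0.49 ± 0.15 (SE) below the fold limit (edgeR adjusted p 0.0266). Plxna2 had 75.1 and 69.2 CPM in MSC and 26.4 and 22.3 CPM in MSC+RAW-LPS-TW, a log2 fold change of -1.57 ± 0.16 (SE) with an edgeR adjusted p of 2.72e-06.

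Plxnc1, the receptor of Sema7a, had 36.9 and 37.6 CPM in MSC, 18.7 and 19.8 in MSC+RAW-TW, and 13.5 and 14.5 in MSC+RAW-LPS-TW. Its log2 fold change was -1.41 ± 0.17 (SE), with an edgeR adjusted p of 1.51e-05. Plxna1 and Plxnb2 were lower without reaching 2-fold, with log2 fold changes of -0.76 ± 0.16 and -0.58 ± 0.15 (SE) and edgeR adjusted p of 0.00243 and 0.00943. Plxnd1 had -0.33 ± 0.16 and Plxna3, Plxna4, Plxnb1 and Plxnb3 lay between -0.53 and 0.19, all without passing the adjusted p. The remaining semaphorins tested, Sema3b, Sema3e, Sema3f, Sema3g, Sema4b, Sema4g, Sema5a and the class 6 genes, had log2 fold changes between -0.81 and 0.59 and were not called.

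With the trends on GC content and length removed the count was 9 again, 4 higher and 5 lower, with Sema3c at 3.70 and Nrp1 at -2.19. In this step 2187 of all 20375 genes were called. Over pairs of libraries whose names carry the same ending, the log2 ratio of MSC+RAW-LPS-TW to MSC was 4.03 and 3.49 for Sema3c and -2.08 in both pairs for Nrp1. All of the 9 genes but Sema4f were called under each of the 14 alternatives to the fit.

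**Figure D4:**
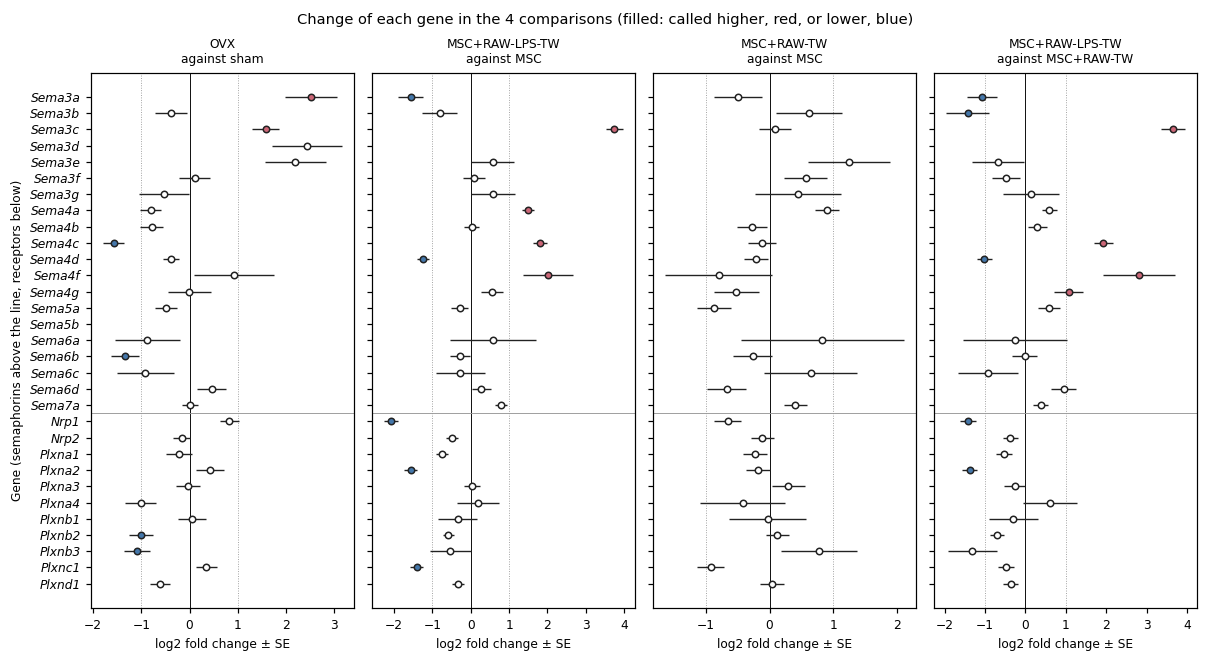
Log2 fold change with its SE (horizontal axes) for each gene (vertical axis) in the 4 comparisons, 1 panel each. Filled points are called genes, red higher and blue lower. Called genes number 6 in OVX against sham, 9 in MSC+RAW-LPS-TW against MSC, none in MSC+RAW-TW against MSC and 9 between the co-culture groups, and dotted lines mark the fold limit of 2.

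MSC+RAW-TW against MSC asks what untreated macrophages did across the membrane. None of 29 genes was called by edgeR or by DESeq2, against 16.4% of all genes (6.8% higher and 9.59% lower), while 6 had an unadjusted p under 0.05. This contrast has 1 sample of MSC+RAW-TW, which is assumed to vary like the other groups. Without the fold limit 4 genes passed the edgeR adjusted p, against 28.6% of all genes. They were Sema4a at 0.91 ± 0.19 (SE) on the log2 scale and, on the lower side, Plxnc1 at -0.93 ± 0.21, Sema5a at -0.88 ± 0.27 and Nrp1 at -0.66 ± 0.21. The per-library values of Sema4a were 69.9 and 57.2 CPM in MSC and 119.9 and 113.6 in MSC+RAW-TW. With GC content and length trends removed, Sema3e (1.96) was called higher and Sema6b (-1.07) lower. Of the 4 genes only Plxnc1 (-0.78, edgeR adjusted p 0.0148) still passed the adjusted p, while Sema4a was at 0.46, Sema5a at -0.36 and Nrp1 at 0.07 (edgeR adjusted p 0.0751, 0.302 and 0.817). Without MSC replicate 1, Sema4a was called at 1.06. The median log2 fold change of all genes was -0.13 here, that of the semaphorins was -0.02 and that of the receptors was -0.12. With the trends removed these medians were -0.0014, -0.10 and -0.34.

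The co-culture groups were also compared with each other, for the treatment of the macrophages. This comparison shares its libraries with the comparisons above and is no independent support for them, and its single MSC+RAW-TW sample is again assumed to vary like the other groups. Of 29 genes 9 were called, against 27.4% of all genes, with 4 higher (15.4% of all genes) and 5 lower (12.0% of them), so that the share of called genes was close to that of all genes. Sema3c (3.66 ± 0.29, SE), Sema4f (2.82 ± 0.88), Sema4c (1.93 ± 0.23) and Sema4g (1.08 ± 0.36) rose. Sema3b (-1.43 ± 0.53), Nrp1 (-1.42 ± 0.20), Plxna2 (-1.38 ± 0.19), Sema3a (-1.08 ± 0.38) and Sema4d (-1.02 ± 0.18) fell. The median log2 fold change of all genes was 0.14, that of the semaphorins 0.22 and that of the receptors -0.48.

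Sema4g had 2.54 and 2.88 CPM in MSC+RAW-TW and 5.61 and 5.99 in MSC+RAW-LPS-TW, and Sema3b had 4.28 and 3.28 against 1.23 and 1.66. The calls of Sema3a, Sema3b and Sema4d were lost under 4 or 5 of 14 alternatives each, all 3 of them without MSC+RAW-TW library A, Sema3b also without MSC+RAW-LPS-TW library A and the others also without MSC+RAW-LPS-TW library B, and that of Sema4g with DESeq2. The count was 6 without MSC+RAW-TW library A. With GC content and length trends removed, Sema4a was at 1.03, past the fold limit, while Sema3b (-0.98) and Sema4d (-0.82) fell short of it. Nrp1 was then at -2.26, Sema3a at -2.03 and Sema3c at 2.95, and the medians were 0.60 over the semaphorins and -0.29 over the receptors, beside 0.01 over all genes. Sema3c, Sema4c, Nrp1 and Plxna2 were called under each of the 14 alternatives, and Sema4f in each of the 13 that tested it.

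Of 56 partner genes tested, 10 were called in MSC+RAW-LPS-TW against MSC, beside 10.9% of all genes, 5 higher (5.85% of all genes) and 5 lower (5.09%). In MSC+RAW-TW against MSC 6 were called, beside 16.4% of all genes, and between the co-culture groups 13, beside 27.4%, both a smaller share than over all genes. The median log2 fold changes of the partners were 0.06, -0.05 and 0.15 in these 3 comparisons. Single genes changed by far more. Trem2, the receptor that works beside Plxna1, had 455.8 and 451.4 CPM in MSC, 717.5 and 719.7 in MSC+RAW-TW, and 9.001 and 14.9 in MSC+RAW-LPS-TW, a log2 fold change of -5.25 ± 0.23 (SE) against MSC with an edgeR adjusted p of 1.84e-10. Its adapter Tyrobp had 676.3 and 628.3, then 2051 and 2008, and then 397.0 and 520.6 CPM. Tyrobp rose 3.18-fold in MSC+RAW-TW against MSC (edgeR adjusted p 0.000131) and fell 4.52-fold in MSC+RAW-LPS-TW relative to MSC+RAW-TW (edgeR adjusted p 6.48e-07). Plxna1 itself had 190.9 and 186.1, then 160.4 and 154.5, and then 124.8 and 98.5 CPM.

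Met, the receptor of hepatocyte growth factor that pairs with B-type plexins, had 6.78 and 9.06 CPM in MSC, 2.86 and 2.62 in MSC+RAW-TW and 71.5 and 50.9 in MSC+RAW-LPS-TW. Its log2 fold change was 2.95 ± 0.22 (SE) in MSC+RAW-LPS-TW and -1.49 ± 0.28 in MSC+RAW-TW, both against MSC. The adhesion molecules L1cam and Nrcam, which join neuropilin complexes in neurons, fell in MSC+RAW-LPS-TW by 1.82 and by 4.01 on the log2 scale. Nrcam had 58.7 and 50.2 CPM in MSC and 3.48 and 3.28 in MSC+RAW-LPS-TW. Cd72, a receptor of Sema4d on immune cells, rose by 1.09. In all, 2 of 12 co-receptors tested rose and 4 fell in MSC+RAW-LPS-TW against MSC, beside 5.85% and 5.09% of all genes. In MSC+RAW-TW against MSC 1 rose (Tyrobp) and 2 fell (Met and Itga1), beside 6.8% and 9.59%. Between the co-culture groups, 1 rose in MSC+RAW-LPS-TW (Met) and 4 fell, among them Trem2, Nrcam and Tyrobp, beside 15.4% and 12.0%.

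Of 37 plexin effectors tested, 1 rose and 1 fell in MSC+RAW-LPS-TW against MSC, a smaller share in each direction than the 5.85% and 5.09% of all genes. Rnd1, a GTPase that binds plexins, had 10.2 and 9.47 CPM in MSC and 45.6 and 51.2 in MSC+RAW-LPS-TW, a log2 fold change of 2.29 ± 0.18 (SE). Tiam1, an activator of Rac, had a log2 fold change of -1.37 ± 0.24 (SE). In MSC+RAW-TW against MSC, Cfl1 (cofilin, 1.21) and Rhod (1.01) rose and Rock2 (-1.18) fell, beside 6.8% and 9.59% of all genes. Between the co-culture groups 3 rose in MSC+RAW-LPS-TW, Rnd1 (1.72), Rock1 (1.56) and Rap1b (1.37), and 3 fell, Fes (-1.37), Tiam1 (-1.26) and Cfl1 (-1.24), beside 15.4% and 12.0% of all genes. Itga1, Rock2 and Rhod in the former and Rock1, Rap1b and Fes in the latter were not called once the GC and length trends were removed. In turn the GTPases Rhoa (1.04) and Rap1a (1.11), named after their values were seen, were then called higher in the former, and Rhoa (-1.26) lower in the latter.

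Of the 7 proteases that cut semaphorins, 2 rose in MSC+RAW-LPS-TW against MSC, beside 5.85% of all genes, and none fell, with a median log2 fold change of 0.08. Mmp14, which releases Sema4d from membranes, had 252.0 and 222.4 CPM in MSC, 177.2 and 171.0 in MSC+RAW-TW and 639.0 and 505.4 in MSC+RAW-LPS-TW, a log2 fold change of 1.27 ± 0.16 (SE) against MSC. Pcsk5, a proprotein convertase, rose from 1.23 and 1.23 CPM to 4.71 and 3.79, by 1.79 ± 0.38 (SE) on the log2 scale. The other 5 were not called in any MSC comparison. Against MSC, Furin was at 0.99 (edgeR adjusted p 0.000166) in MSC+RAW-LPS-TW, and Pcsk6, Pcsk7, Adam10 and Adam17 lay between -0.65 and 0.08 and did not pass the adjusted p.

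**Figure D5:**
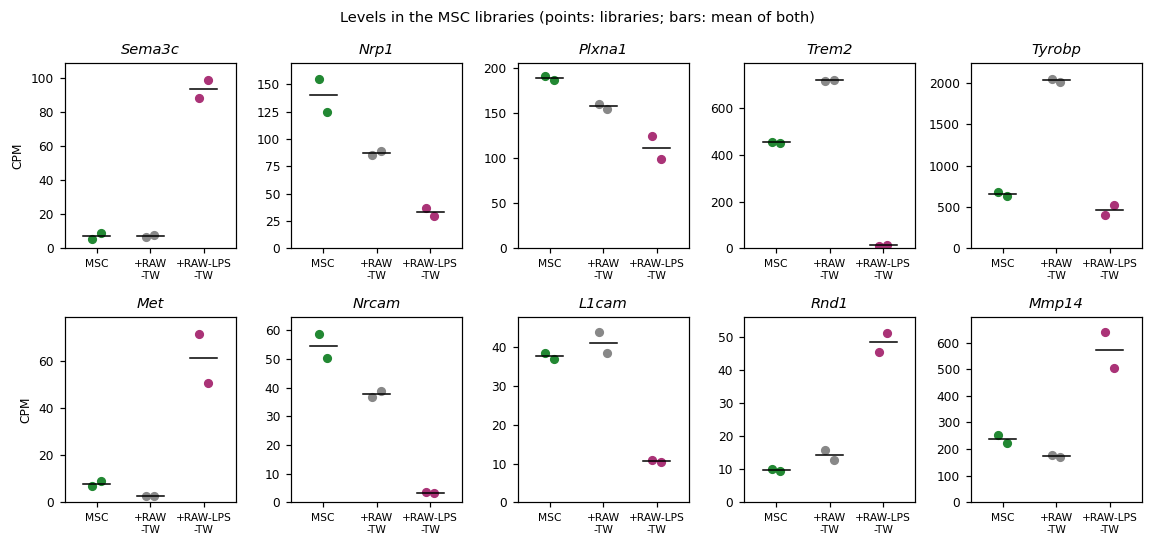
CPM (vertical axes, from 0) of Sema3c, Nrp1, Plxna1 and 7 partner genes in the MSC, MSC+RAW-TW and MSC+RAW-LPS-TW libraries (horizontal axes), with 1 point per library and a bar at the mean of both. Trem2 is at 9.001 and 14.9 CPM in MSC+RAW-LPS-TW against at least 451.4 CPM in the other 4 libraries, and Met and Sema3c are highest there.

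Markers moved with these groups too. Summed over 14 macrophage markers the level was 28910 to 29120 CPM in MSC, 37640 to 38170 in MSC+RAW-TW and 14460 to 14950 in MSC+RAW-LPS-TW. Most of each sum was Lyz2, with means of 21650, 26450 and 9580 CPM. Of the 14, 1 was called higher and 7 lower in MSC+RAW-LPS-TW against MSC. Between MSC and MSC+RAW-LPS-TW, mean CPM was higher in the latter for Adgre1 (547.6 and 1470), Ptprc (169.2 and 218.6), Itgam (174.9 and 234.3) and Cd14 (708.3 and 1092). These were named after their values were seen, and the other markers had lower means. Over 11 stromal markers it was 2893 to 3229, 2260 to 2275 and 5050 to 5106 CPM, with 4 called higher and none lower. Over 8 neutrophil markers it was 11.7 to 16.4, 31.7 to 34.6 and 369.7 to 556.6 CPM, mostly S100a8, while S100a9, its partner in neutrophils, was at 0 CPM in 5 of the 6 libraries and at 0.06 CPM in 1. Over 8 osteoclast markers it was 107.7 to 111.1, 144.9 to 145.8 and 826.4 to 890.7 CPM, of which Mmp9 made up 699.5 and 738.9 CPM in MSC+RAW-LPS-TW. Ribosomal RNA genes took 4.83% and 4.14% of all counts in MSC, 1.93% and 1.91% in MSC+RAW-TW and 8.03% and 5.67% in MSC+RAW-LPS-TW, so that the 3 groups did not overlap. The part of the markers and of this share in the semaphorin, receptor and partner differences was not tested. Endothelial, osteoblast, B cell, T and NK cell, erythroid and glial lists summed to at most 46.6 CPM in any library of either experiment, the 4 MSC surface markers to 964.6 to 1617 CPM, and the megakaryocyte list, through Pf4, to 130.8 to 3464 CPM.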

How the data were processed

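RNA-seq was measured in 6 BMM and 6 MSC libraries. According to the methods, the authors used poly(A) RNA, a directional kit and read pairs, Trim Galore 0.6.7, HISAT2 2.1.0 on GRCm38 and featureCounts 2.0.1. What the authors deposited are raw counts, 1 value per gene in each library, with no normalization. Strand setting and pair counting are not given in the sources used here. Even counts made up 60.0% to 71.4% of counts from 1 to 20, so reads of a pair may be counted singly.

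Members and gene lists were chosen with earlier results of these data known. Symbols, GC content and coordinates came from GENCODE vM21. Near-identical libraries were summed. Totals per library were 17012923 to 45367105 counts. EdgeR 4.0.16 in R 4.3.3 was run with TMM, filterByExpr and the quasi-likelihood F-test (two-sided), once over 16768 genes (BMM) and once over 20499 genes (all 6 MSC libraries). SE is the size of the log2 fold change divided by the root of F. DESeq2 1.42.0 was an alternative, as were RLE scaling, other count filters, unsummed libraries, a replicate block, leaving out each library, and offsets that take out lowess curves (span 0.3) fitted to GC content and to length. In simulated data of the BMM design, 130 of 192 genes changed by a log2 fold of 1.5 were called, with 6 false calls among 16245 genes. In the MSC design it was 118 of 189, with 0 false calls among 19185. Neither simulation held a GC trend between groups, so these numbers of false calls need not hold for the real libraries. Genes with 0 or few counts were filtered: Sema5b was not tested in either experiment, nor Sema3d in MSCs.

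All members are named. From the partner lists (co-receptors, effectors, proteases), the called genes with the largest log2 fold change, at most 3 per list and direction and with a mean CPM of at least 1, are named, with Trem2 and Tyrobp always. From each marker list up to 3 genes of highest mean CPM are named. The replicate numbers of sham and OVX mark no stated batch. Python 3.11.15 with pandas 2.3.3 and matplotlib 3.10.9 served for tables and figures.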

Additional observations from a re-analysis of the deposited data

How the results depend on the processing

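Over 1648 refits of single genes, 1580 kept their call status, 46 lost a call, 22 gained one and no called gene changed direction. Most of these refits were of genes not called in the reported fit. The 6 genes called in OVX against sham kept their call in 6 to 13 of 15 alternatives each. Over all genes in OVX against sham, the reported fit called 1419 of 16768. With GC content and length trends removed it was 589 of 16657, and with only replicates 1 and 3 it was 199 of 15939. Of the 31 genes, in OVX against sham 6 were called in the reported fit, 2 with GC content and length trends removed and 0 with only replicates 1 and 3, an alternative added after the data were seen. Leaving out each library gave 0 to 8. With every library as its own sample it was 9, and with the replicate number as a block as well it was also 9. Of all 15778 genes tested, 1818 and 2117 were called in these fits. Both count the near-identical sham replicates 2 and 3 separately. Deviations of same-numbered sham and OVX libraries correlated at 0.38, -0.02 and 0.33, and sham replicate 2 correlated best with OVX replicate 3. Since sham replicates 2 and 3 are near-identical, these correlations cannot tell whether the numbers pair the samples. In the MSC comparisons the replicate number could not serve as a block, because the columns of MSC+RAW-TW and MSC+RAW-LPS-TW carry no number that matches a sample. With the ending of the library names as a block instead, added after the data were seen and with every library as its own sample, 9 genes were called in MSC+RAW-LPS-TW against MSC, 0 in MSC+RAW-TW against MSC and 9 between the co-culture groups. Of all 18806 genes tested, 2384, 4489 and 6629 were called in these fits. In MSC+RAW-TW against MSC, 0 genes were called, 2 with the trends removed, 4 without the fold limit and 0 to 1 leaving out a library. Counts in the 2 MSC+RAW-LPS-TW comparisons stayed within 1.5 times, at 8 to 9 against MSC and 6 to 9 against MSC+RAW-TW leaving out a library. Partner genes in OVX against sham numbered 5, and 2 with the trends removed, 2 with only replicates 1 and 3, 5 with the replicate block, 13 without the fold limit and 2 to 8 leaving out a library. The 13 were of 56 partner genes tested, beside 2193 of all 16768 genes that passed the adjusted p without the fold limit. Without the fold limit partner genes numbered 20 in MSC+RAW-LPS-TW against MSC, 22 in MSC+RAW-TW against MSC and 27 between the co-culture groups. These were of 56 partner genes tested each time, beside 4286, 5862 and 8234 of all 20499 genes in the same order. Leaving out a library gave 9 to 12, 5 to 8 and 13 to 17 partner genes in these 3 comparisons. The trend step takes out what moves with GC content, and without OVX replicate 2 the fit has fewer samples. Beyond that, the cause was not tested. Of all genes called in MSC+RAW-TW against MSC, 41.5% were higher, and 51.9% with the trends removed.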
